A study of Arabidopsis thaliana with 12 samples.

Results

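The comparison described here set 3 RNA-seq libraries of *Arabidopsis thaliana* seedlings against 3 others, 6 of the 12 libraries of the series. The members were chosen by the names of the deposited count tables: 3 tables named *cdca7α cdca7β* were compared with 3 tables named *h1*. The sample titles give another genotype for the same libraries, *h1.1 h1.2* for the tables named *cdca7α cdca7β* and Col-0 for the tables named *h1*. Titles and table names differed for 9 of the 12 libraries, and the genotype field of the labels reads Col-0 for all 12. Both namings are therefore kept: "*cdca7α cdca7β* tables" below means the libraries titled *h1.1 h1.2*, and "*h1* tables" means the libraries titled Col-0. Each library came from 1 seedling of 14 days, and all plants were of the Col-0 ecotype. By the study's methods, the *h1.1* and *h1.2* alleles are T-DNA insertions and the *cdca7α* and *cdca7β* alleles were made with CRISPR-Cas9, so by the titles an *h1.1 h1.2* mutant is set against the wild type, and by the table names a *cdca7α cdca7β* mutant against an *h1* mutant. No treatment was added. The remaining 6 libraries, 3 in tables named *col* (titled *cdca7α cdca7β*) and 3 of the quadruple mutant *h1.1 h1.2 cdca7α cdca7β* under both namings, entered the fit to estimate the spread and are named only beside single results.

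Linker histone H1, encoded in *Arabidopsis* mainly by *H1.1* and *H1.2*, binds the DNA between nucleosomes and compacts chromatin. CDCA7 proteins are zinc-finger proteins that help chromatin remodelers and the maintenance methyltransferase MET1 to reach nucleosomal DNA, where MET1 copies methylation at CG sites. Transposable elements (TEs) and pseudogenes crowd the regions around *Arabidopsis* centromeres, and many of them are kept silent by DNA methylation. The nuclear genes for photosynthesis, which encode light-harvesting proteins, photosystem subunits and enzymes of carbon fixation, are among the most abundant mRNAs of a green seedling.

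The gene tables of the 6 libraries held 511830 to 833911 counts on genes, 1.67% to 2.38% of the reads in the tables, and the TE tables held 119808 to 208584 counts on TEs. From 97.6% to 98.3% of reads lay in no counted gene, and whether reads of the sense or the antisense strand were counted is not given in the sources used here, so each value below is a count under an unknown strand setting. Replicate 1 of the *cdca7α cdca7β* tables stood apart from the others. It had counts on 17286 genes, against 10449 and 13676 in replicates 2 and 3 and 10958 to 12585 in the *h1* tables. A second fit without this library is given throughout. The seedling label was checked against leaf markers, and 50 nuclear photosynthesis genes together held 0.117% to 0.211% of gene counts in the 9 libraries outside the *cdca7α cdca7β* tables. That is a low share for genes named above as among the most abundant mRNAs of a green seedling. With the strand setting unknown, the check does not settle the label. The targeted genes were read first. *H1.1* had 21, 1 and 0 counts in the *cdca7α cdca7β* tables and 3, 2 and 10 in the *h1* tables, and *H1.2* had 16, 3 and 9 against 1, 15 and 7. *CDCA7α* had 0, 0 and 5 counts against 4, 2 and 10, and *CDCA7β* had 0, 0 and 0 against 0, 7 and 0. In the *col* tables and the quadruple mutant, *H1.1* had 0, 0 and 0 and 4, 6 and 5 counts, *H1.2* had 0, 1 and 2 and 7, 0 and 10, *CDCA7α* had 3, 2 and 8 and 0, 0 and 0, and *CDCA7β* had 0, 1 and 0 and 0, 0 and 0. All 4 genes had 21 counts or fewer in every library, and no library was reassigned on these values.

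With all 3 replicates, 135 of 4461 genes tested were higher in the *cdca7α cdca7β* tables (3.03%) and 84 were lower (1.88%), at a 2-fold change or more and an adjusted p under 0.05 in edgeR's quasi-likelihood test, together 4.91% of the genes tested. Without replicate 1 of the *cdca7α cdca7β* tables, 28 of 4801 genes tested were higher (0.583%) and 38 were lower (0.792%), together 1.37%. Of the 135 genes higher with replicate 1, 26 were also called without it, which is 19.3% of the 135 and 92.9% of the 28. Of the 84 lower genes, 32 were also called without it, 38.1% of the 84 and 84.2% of the 38. All 109 genes called higher only with replicate 1 were protein-coding, and in 106 of them replicate 1 was the highest and replicate 2 the lowest of the *cdca7α cdca7β* tables, an order found in 16.6% of all genes tested and in 11 of the 26 genes called in both fits, 6 of which were photosynthesis genes. Of the 28 genes called higher without replicate 1, 9 were pseudogenes (32.1%) and 3 were long noncoding RNAs (10.7%), against 1.44% and 6.79% of all genes tested in that fit. The counts moved with single libraries on both sides. Leaving out replicate 2 of the *cdca7α cdca7β* tables gave 501 higher and 230 lower genes, leaving out replicate 3 gave 140 and 39, and leaving out replicate 1, 2 or 3 of the *h1* tables gave 18 and 20, 19 and 19, and 15 and 22. Each fit without an *h1* table thus held fewer calls than the fit without replicate 1 of the *cdca7α cdca7β* tables. A call lost without that replicate therefore does not by itself show dependence on it. With DESeq2 size factors in edgeR the median log2 fold change of all genes tested moved from -0.19 to 0.04, and 130 genes were higher and 48 lower, so that 73.0% of calls were higher in place of 61.6% (76.3% with DESeq2, 244 and 76 genes).

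**Figure D1:**
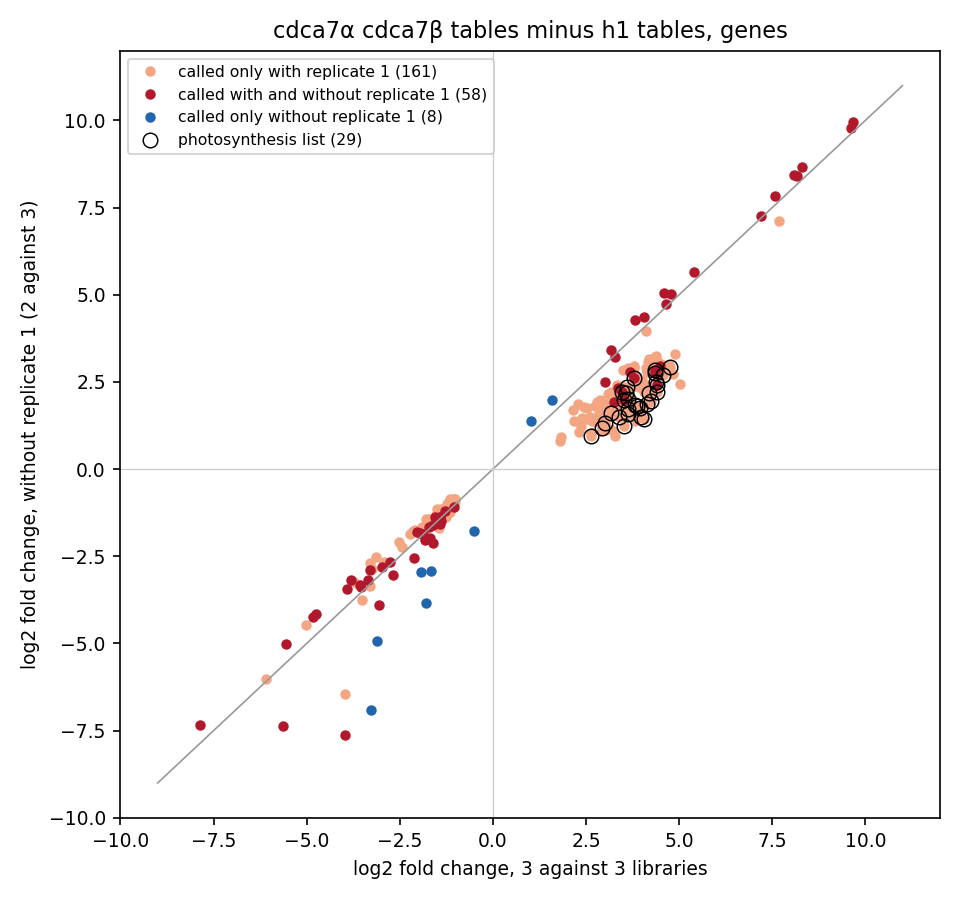
Log2 fold change (*cdca7α cdca7β* tables minus *h1* tables; by titles, *h1.1 h1.2* minus Col-0) of genes called in either fit, with all 3 replicates on the x axis and without replicate 1 of the *cdca7α cdca7β* tables on the y axis. Colors give the fit that called the gene and open circles mark the photosynthesis list: its 29 called members lie below the line of equal values, while AT1G36630 and AT3G06465, with the largest increases, lie just above it. Values of genes at 0 in a whole group depend on the fit's prior count and are no measured fold.

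The photosynthesis genes were high in replicate 1 of the *cdca7α cdca7β* tables, less so in replicate 3, and in replicate 2 near the level of the *h1* tables. Their share of all gene counts was 4.16% in replicate 1 (Wilson 95% interval 4.11 to 4.21), 0.137% in replicate 2 (0.127 to 0.147) and 0.845% in replicate 3 (0.822 to 0.868). In the *h1* tables the share was 0.146% (0.137 to 0.155), 0.134% (0.127 to 0.142) and 0.128% (0.119 to 0.137) in replicates 1, 2 and 3. The intervals cover counting error only. Replicates 1 and 3 thus lay above every *h1* library and replicate 2 lay within their range. The mean was 1.71% ± 2.15 (SD, n = 3) against 0.136% ± 0.00904 (SD, n = 3), a difference that an exact two-sided permutation test did not separate from the spread between libraries (p = 0.2, where 3 against 3 cannot go below 0.1). Without replicate 1 the difference of the means was 0.35 percentage points in place of 1.58. The order of the 3 libraries went with the number of genes that had any count, 17286, 10449 and 13676 in replicates 1, 2 and 3, and the part of that difference in the result was not tested.

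The list of 50 nuclear photosynthesis genes showed the same order of libraries gene by gene. All 50 had their highest level in replicate 1 and their lowest in replicate 2 of the *cdca7α cdca7β* tables. In replicate 1, 49 of the 50 exceeded all 3 *h1* libraries in CPM, the count per library size scaled by TMM factors, and so did 49 in replicate 3, against 21.4% and 25.6% of all genes tested. In replicate 2, 11 exceeded them and 17 lay below them, where among all genes tested 24.4% lay above and 30.8% below. The median level of the list was 351 CPM in replicate 1, 18.0 CPM in replicate 2 and 81.1 CPM in replicate 3, against 17, 14.1 and 13.9 CPM in the *h1* tables. With all replicates, 29 of the 39 members tested were called higher and 0 lower by edgeR, beside 3.03% and 1.88% of all genes, and 37 were higher and 0 lower at an unadjusted p under 0.05 (DESeq2 called 35 and 0). Their median log2 fold change was 3.62, against -0.19 over all genes tested. Without replicate 1, 6 of the 39 were called higher and 0 lower by edgeR, beside 0.583% and 0.792%, and 25 and 0 passed the unadjusted p (DESeq2 called 11 and 0), with a median of 1.74 against -0.10 over all genes tested.

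**Figure D2:**
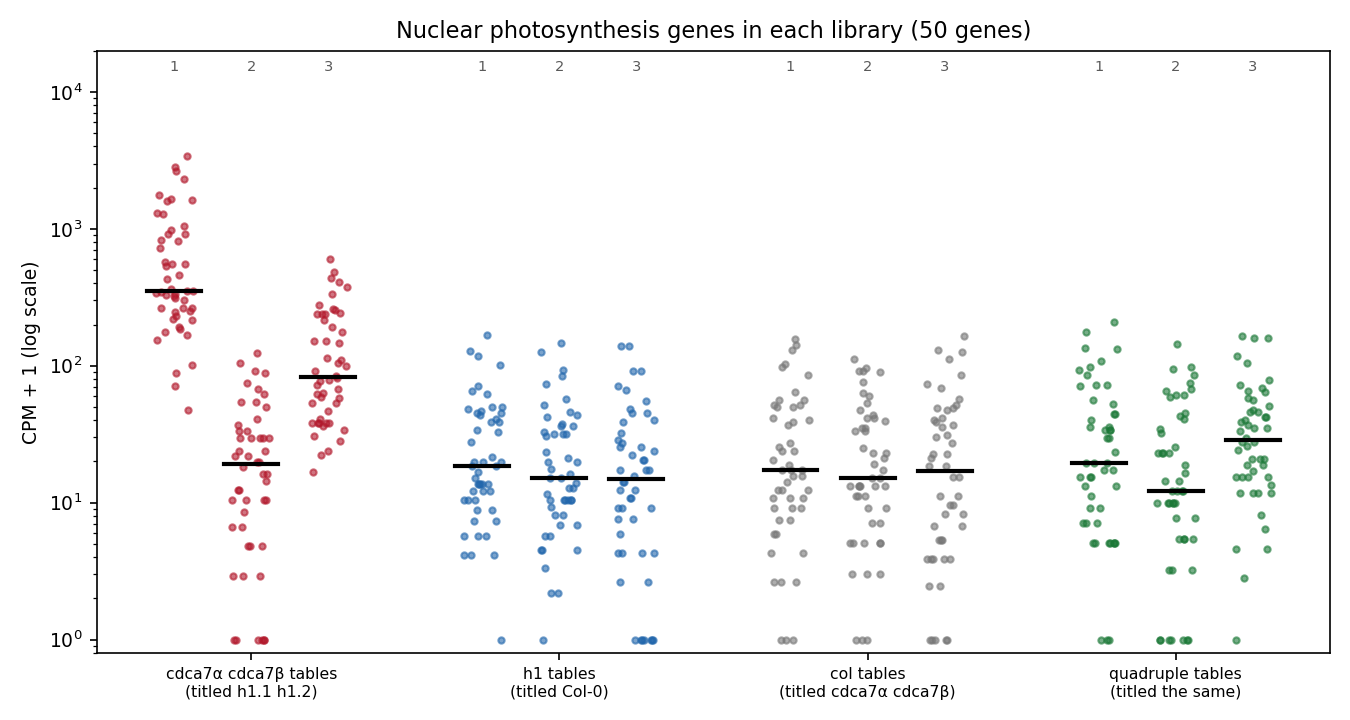
Levels (CPM + 1, log scale) of the 50 nuclear photosynthesis genes in each of the 12 libraries, in 4 groups given by table name and title, with replicate numbers at the top. Each point is 1 gene and each bar the median of the list: it stands at 351 CPM in replicate 1 of the *cdca7α cdca7β* tables, 18.0 in replicate 2 and 81.1 in replicate 3, and near the level of replicate 2 in the *h1* tables.

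Light-harvesting proteins bind the chlorophyll that feeds the photosystems. *LHCB1.3*, one of the major antenna proteins of photosystem II, had 2588, 46 and 419 counts in the *cdca7α cdca7β* tables and 80, 78 and 43 in the *h1* tables. *LHCB1.5*, another copy of the same antenna protein, had 1998, 26 and 265 against 41, 38 and 40, and *LHCA2*, an antenna protein of photosystem I, had 977, 15 and 178 against 17, 26 and 10. All 3 were called higher with replicate 1 only: *LHCA2* differed by a log2 fold change of 4.39 ± 0.91 (SE; edgeR adjusted p = 0.0104) with all replicates and of 2.51 ± 0.69 (edgeR adjusted p = 0.0844) without replicate 1. *LHCB5*, a minor antenna protein that links the antenna to the photosystem II core, had 417, 9 and 106 counts against 9, 8 and 7 and was called in both fits. Its log2 fold change was 4.35 ± 0.80 (edgeR adjusted p = 0.00589) with all replicates and 2.85 ± 0.66 (edgeR adjusted p = 0.0336) without replicate 1. The *LHCB1* and *RBCS* genes are near-identical copies in clusters, and how uniquely mapped reads were divided among the copies is uncertain.

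Subunits of the photosystems and the electron carriers showed the same order of libraries. *PSBO1*, the manganese-stabilizing subunit of the oxygen-evolving complex, had 1335, 28 and 309 counts against 27, 30 and 19. It was called higher with all replicates (log2 fold change 4.37 ± 0.76, edgeR adjusted p = 0.00518) and without replicate 1 (2.76 ± 0.54, adjusted p = 0.0103), and it was the only photosynthesis gene called in each of the 6 fits that left out 1 of the compared libraries (adjusted p up to 0.0497). In CPM its replicate 2 stood at 53.1, just above the *h1* tables at 42.7, 35.3 and 31.0, while replicates 1 and 3 stood at 1759 and 440. *PETE2*, a plastocyanin that carries electrons to photosystem I, had 623, 39 and 168 counts against 21, 43 and 10 and was called in both fits (3.48 ± 0.64, edgeR adjusted p = 0.00589, and 2.21 ± 0.48, adjusted p = 0.028). *PSAK*, a small subunit of photosystem I, had 250, 8 and 43 counts against 8, 2 and 0 and was called with replicate 1 only (4.75 ± 0.99, edgeR adjusted p = 0.0104, against 2.92 ± 0.93, adjusted p = 0.159).

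Enzymes of carbon fixation followed the same order. The small subunit gene of Rubisco *RBCS1A* had 2140, 35 and 338 counts in the *cdca7α cdca7β* tables and 63, 71 and 55 in the *h1* tables, and its relatives *RBCS2B* and *RBCS3B* had 627, 6 and 123 against 12, 8 and 9 and 1239, 8 and 183 against 25, 26 and 12. None of the 3 was called without replicate 1. *RCA*, Rubisco activase, had 1758, 28 and 288 counts against 29, 27 and 33, and was called in both fits (4.41 ± 0.85, edgeR adjusted p = 0.0071, and 2.41 ± 0.55, adjusted p = 0.0323). *GAPA1*, a chloroplast glyceraldehyde-3-phosphate dehydrogenase, had 200, 17 and 55 counts against 6, 10 and 3 and was called in both fits (3.79 ± 0.67, edgeR adjusted p = 0.00518, and 2.62 ± 0.60, adjusted p = 0.0323).

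Of the 109 genes called higher only with replicate 1, 23 were on the photosynthesis list, 69 were in neither group described here and 17 had a RefSeq product name that holds the words ribosomal protein, a group chosen after the calls were seen. Among 72 tested genes with such a name, 18 were called higher and 0 lower by edgeR with all replicates, beside 3.03% and 1.88% of all genes, with 43 higher and 1 lower at an unadjusted p under 0.05 (DESeq2 called 33 and 0). Without replicate 1, edgeR called 1 higher and 0 lower, with 18 and 1 at the unadjusted p (DESeq2 called 3 and 0). That gene, AT1G70600, had 148, 35 and 74 counts against 7, 15 and 10, with replicate 2 above the *h1* tables as well (log2 fold change 3.01 ± 0.52, edgeR adjusted p = 0.00518, and 2.49 ± 0.52, adjusted p = 0.0182). AT3G62870, a ribosomal protein gene with one of the largest changes, had 133, 4 and 30 counts against 2, 2 and 1 and was called with replicate 1 only (4.88 ± 1.19, edgeR adjusted p = 0.023, against 3.31 ± 1.26, adjusted p = 0.279). Counts on chloroplast genes were 0.0432% ± 0.0207 (SD, n = 3) of gene counts in the *cdca7α cdca7β* tables and 0.0201% ± 0.00592 (SD, n = 3) in the *h1* tables, which the exact permutation test did not separate (two-sided p = 0.2).

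A second set of genes was high in all 3 *cdca7α cdca7β* tables and at or near 0 in the *h1* tables, whether or not replicate 1 was used. These genes were picked by that difference, so their low counts in the *h1* tables are no separate result. They were pseudogenes, long noncoding RNAs and uncharacterized genes, many of them close to a centromere, and of those named below AT5G28090 alone had its highest level in replicate 1. AT5G28090 was an exception in its call as well, which did not hold without replicate 1 (edgeR adjusted p = 0.0658). The 250 bases before the annotated start are printed for 3 genes of the set, for the gene that was lower by most and for a photosynthesis gene. The latter had the highest level among the photosynthesis genes called only with replicate 1. The bases come from the RefSeq assembly TAIR10.1, read 5′ to 3′ on the strand of the gene. Each CG, the dinucleotide that MET1 maintains in methylated form, is in capitals.
AT3G06465 (chr3:14790924-14791173, plus strand): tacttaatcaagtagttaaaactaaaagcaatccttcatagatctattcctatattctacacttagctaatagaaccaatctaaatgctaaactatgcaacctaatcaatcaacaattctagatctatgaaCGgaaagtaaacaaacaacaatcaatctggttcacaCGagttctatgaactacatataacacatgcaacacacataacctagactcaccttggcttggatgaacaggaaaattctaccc
AT1G36630 (chr1:13847626-13847875, minus strand): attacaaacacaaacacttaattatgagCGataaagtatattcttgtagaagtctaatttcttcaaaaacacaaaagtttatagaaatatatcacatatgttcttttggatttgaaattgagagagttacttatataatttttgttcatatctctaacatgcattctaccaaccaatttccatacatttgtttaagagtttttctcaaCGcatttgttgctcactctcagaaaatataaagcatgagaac
AT5G29562 (chr5:11196800-11197049, plus strand): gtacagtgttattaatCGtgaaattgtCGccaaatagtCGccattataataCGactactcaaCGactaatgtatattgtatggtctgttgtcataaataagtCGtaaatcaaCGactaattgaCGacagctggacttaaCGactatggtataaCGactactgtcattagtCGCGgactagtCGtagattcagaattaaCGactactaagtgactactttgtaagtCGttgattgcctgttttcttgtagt
AT5G26970 (chr5:9487457-9487706, minus strand): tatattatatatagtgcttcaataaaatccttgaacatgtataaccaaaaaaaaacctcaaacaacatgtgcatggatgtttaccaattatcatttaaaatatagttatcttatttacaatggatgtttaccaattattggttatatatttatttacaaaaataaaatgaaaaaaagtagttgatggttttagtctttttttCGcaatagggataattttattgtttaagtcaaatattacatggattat
*LHCB1.3* AT1G29930 (chr1:10477635-10477884, plus strand): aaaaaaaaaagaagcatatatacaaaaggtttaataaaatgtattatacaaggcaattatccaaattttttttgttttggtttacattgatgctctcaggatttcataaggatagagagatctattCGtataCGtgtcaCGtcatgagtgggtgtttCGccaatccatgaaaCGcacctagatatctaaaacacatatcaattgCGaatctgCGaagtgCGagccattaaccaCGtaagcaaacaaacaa
The windows differ widely in CG content. They hold 2 CGs before AT3G06465 and AT1G36630, 15 before AT5G29562, 1 before AT5G26970 and 9 before *LHCB1.3*, where the median over all genes tested was 5. As many CGs as before AT5G29562 or more were found before 2.91% of all genes tested, and as many as before AT3G06465 or AT1G36630 before 88.3%. Over the 28 genes called higher without replicate 1 the median was 5.5 CGs, and over the 38 called lower it was 4.

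AT3G06465, a noncoding RNA locus of 608 bases (TAIR10.1, chromosome 3, 14791174 to 14791781), was the most abundant of the set. It had 1142, 1640 and 1098 counts in replicates 1, 2 and 3 of the *cdca7α cdca7β* tables and 5, 0 and 0 in the *h1* tables. The groups lay far apart, with a log2 fold change of 9.61 ± 0.76 (SE; edgeR adjusted p = 1.25e-06), and 9.80 ± 0.70 (adjusted p = 6.88e-08) without replicate 1. The *col* tables had 0, 2 and 1 counts on it and the quadruple mutant 17, 38 and 11. AT1G36630, a pseudogene of 7481 bases (chromosome 1, 13840145 to 13847625), had 63, 118 and 135 counts against 0, 0 and 0, and 0, 0 and 0 in the *col* tables. Its level was at least 111-fold higher, taking 3 counts over the 3 *h1* tables as the floor, with an edgeR adjusted p of 0.00023, and at least 144-fold higher without replicate 1 (adjusted p = 1.47e-05).

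Other pseudogenes and noncoding RNAs showed the same separation at lower counts. AT5G29562, a pseudogene of 4632 bases (chromosome 5, 11197050 to 11201681), had 19, 52 and 49 counts against 0, 0 and 0, at least 42.1-fold higher (edgeR adjusted p = 0.00518). AT2G10620 had 27, 51 and 31 counts against 0 in every *h1* table, at least 38.3-fold higher (adjusted p = 0.00573), and AT3G42360 had 16, 63 and 18 against 0, at least 34.0-fold higher (adjusted p = 0.0104). All of them were called without replicate 1 as well. AT2G11640 had 15, 28 and 30 counts against 0, 0 and 0 (at least 25.6-fold, edgeR adjusted p = 0.0131), and AT5G36900, an uncharacterized protein-coding gene, had 20, 20 and 18 against 0, 0 and 0 (at least 20.4-fold, adjusted p = 0.00879). AT2G04735, a long noncoding RNA, had 40, 44 and 97 counts against 0, 0 and 4 (log2 fold change 5.39 ± 0.99, edgeR adjusted p = 0.00589). AT2G10250 had 15, 88 and 40 counts against 0, 7 and 0 (4.59 ± 1.08, edgeR adjusted p = 0.0225). AT5G28090, an uncharacterized gene, had 51, 23 and 10 counts against 0, 0 and 0 and was called with replicate 1 only (adjusted p = 0.00753, and 0.0658 without it).

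Other loci had counts in every *h1* table and rose from there. AT4G04170, a pseudogene, had 86, 91 and 170 counts against 5, 5 and 3 (log2 fold change 4.78 ± 0.52, edgeR adjusted p = 5.05e-05). AT2G05915, an uncharacterized gene chosen for mention because it was called in every fit, had 372, 344 and 363 counts against 17, 21 and 8 (4.66 ± 0.38, adjusted p = 1.25e-06), with 121, 151 and 122 CPM in the quadruple mutant and 490, 652 and 517 CPM in the *cdca7α cdca7β* tables. The neighbouring pseudogenes AT2G15800 and AT2G15810 lie 79 bases apart and had 448, 709 and 625 counts against 76, 108 and 39, and 395, 835 and 583 against 28, 79 and 22. Whether they were counted from 1 transcript was not tested. In each of the 6 fits that left out 1 library, 10 of the 135 higher genes were called: these 2, AT1G36630, AT2G05915, AT2G10620, AT3G06465, AT4G04170, AT5G29562, AT1G70600 and *PSBO1*. Compared by blastn, 1 pair among the 28 loci called higher without replicate 1 shared sequence, AT3G06465 and AT4G04170, at 82.4% identity over 187 bases.

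**Figure D3:**
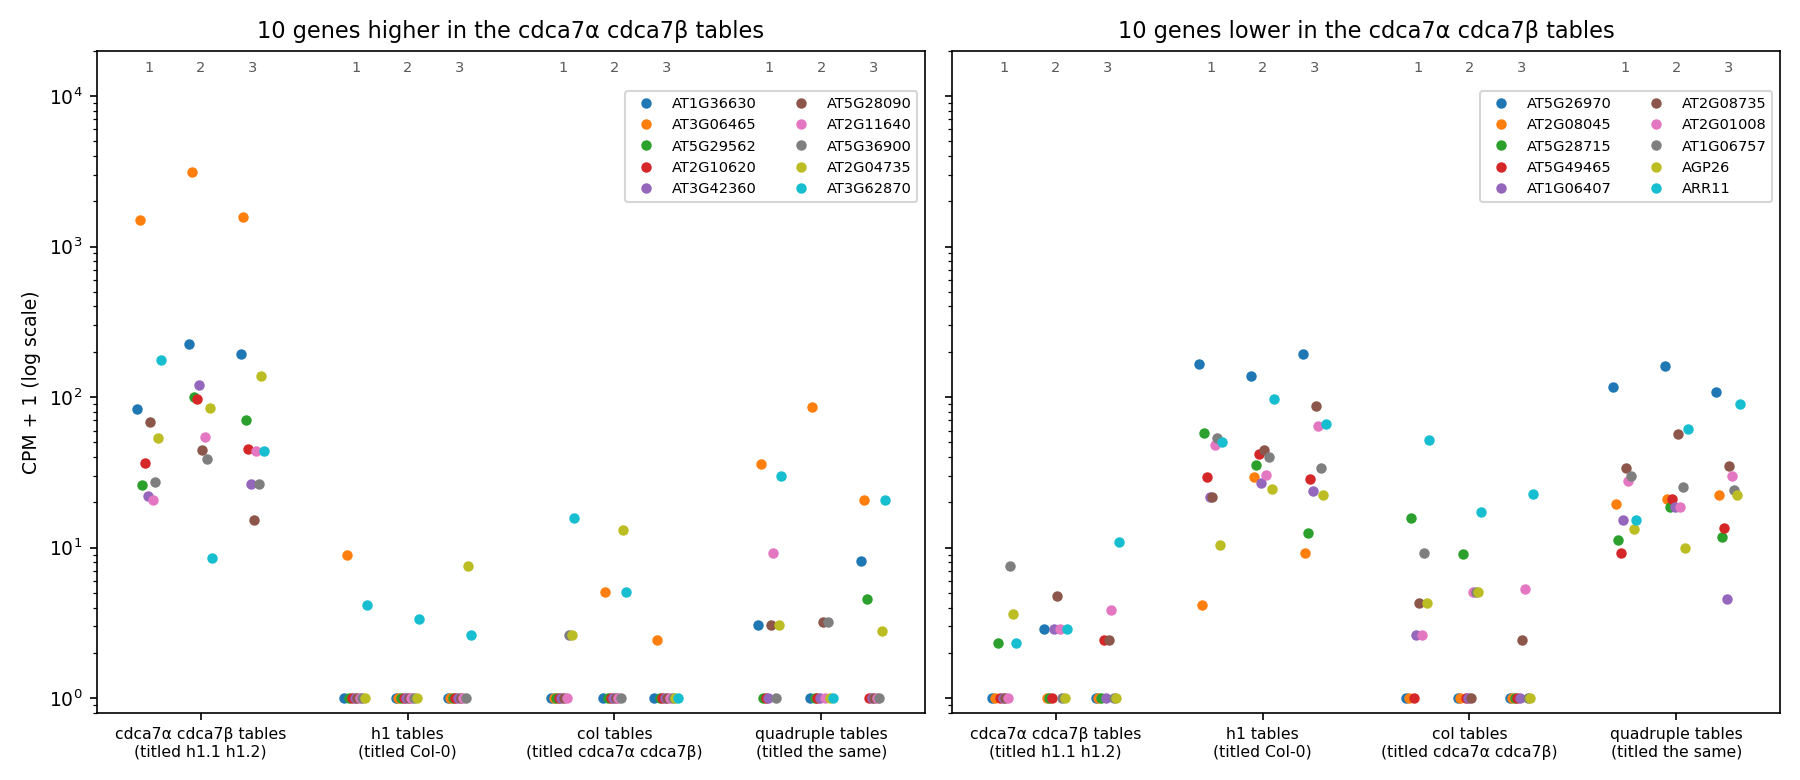
Levels (CPM + 1, log scale) in the 12 libraries of the 10 genes with the largest increase and the 10 with the largest decrease among genes called with all replicates whose libraries do not overlap. Each point is 1 gene in 1 library, with replicate numbers at the top: higher genes such as AT1G36630 and AT3G06465 sit at or near 0 in the *h1* and *col* tables, while the lower genes are also found in the quadruple mutant, AT5G26970 at 115, 160 and 108 CPM. Of the higher genes, AT3G62870 had 9, 2 and 0 counts in the *col* tables and 133, 4 and 30 in the *cdca7α cdca7β* tables.

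The called genes were described by their distance from the centromere, taken at 15, 3.6, 14, 4 and 12 Mb on chromosomes 1 to 5. Of the 28 genes called higher without replicate 1, 13 lay within 3 Mb of it (46.4%), where 8.44% of all genes tested in that fit did. Of the 109 called only with replicate 1, 13 did (11.9%). Of the genes called lower, 21 of 84 (25%) with all replicates and 10 of 38 (26.3%) without replicate 1 lay within 3 Mb. These shares are descriptions, with no test of the position. In 29 of the 135 genes, the lowest of the *cdca7α cdca7β* tables was above all 9 other libraries, as was true of 1.55% of all genes tested, but these genes were selected for a high level in the same tables.

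**Figure D4:**
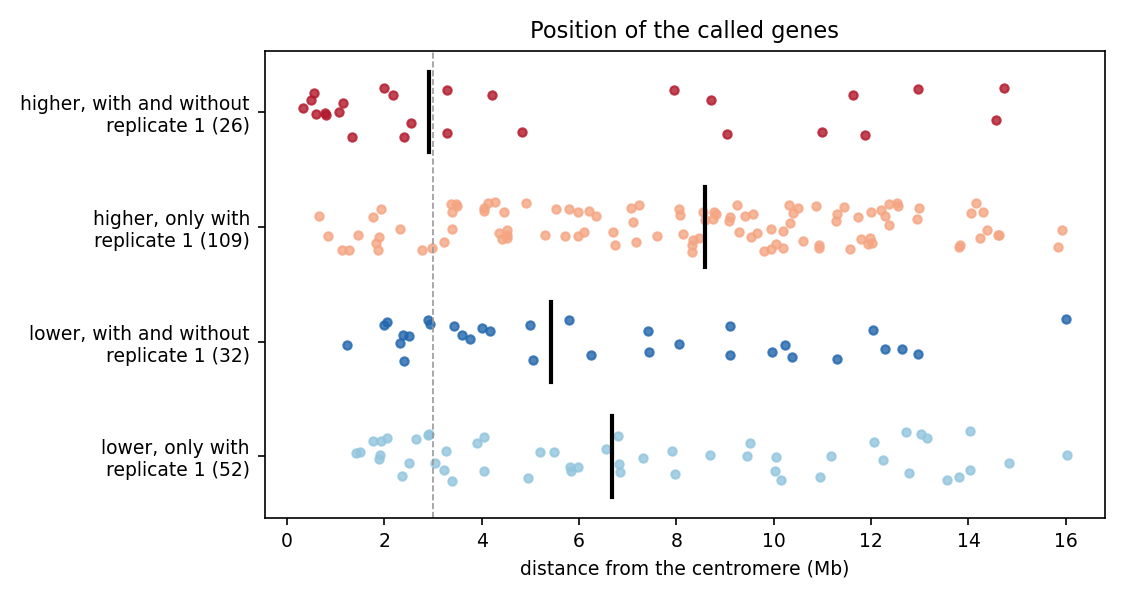
Distance from the centromere (Mb) of the genes called higher or lower in the *cdca7α cdca7β* tables, split by whether the call held without replicate 1, with the number of genes in brackets. Points are genes, scattered vertically for visibility, bars are medians, and the dashed line marks 3 Mb: 13 of the 26 genes higher in both fits and 13 of the 109 called only with replicate 1 lie within 3 Mb.

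Of the 84 genes lower in the *cdca7α cdca7β* tables, 52 were called only with replicate 1, against 109 of the 135 higher genes. Leaving out replicate 1, 2 or 3 of the *h1* tables instead gave 20, 19 and 22 lower genes, fewer than the 38 without replicate 1. A call lost without replicate 1 is thus not by itself an effect of that library. Over all genes tested, 50.8% lay below all 3 *h1* tables in replicate 1, 30.8% in replicate 2 and 37.9% in replicate 3. All 84 had no overlap between the *cdca7α cdca7β* and the *h1* tables, beside 15.3% of all genes tested that were below without overlap and 1.88% called. In 59 of the 84 every *h1* table was also above every *col* table, and in 22 every *h1* table was above all 9 other libraries. The shares of all genes tested with these orders are not given here, and the 84 were selected for a higher level in the *h1* tables. AT5G26970, an uncharacterized gene of 583 bases (TAIR10.1, chromosome 5, 9486874 to 9487456), had 0, 1 and 0 counts in the *cdca7α cdca7β* tables and 104, 116 and 118 in the *h1* tables. It was lower by the largest margin (log2 fold change -7.85 ± 0.63, edgeR adjusted p = 2.57e-06; -7.33 ± 0.69 without replicate 1, adjusted p = 6.99e-06). The *col* tables had 0, 0 and 0 counts on it and the quadruple mutant 56, 72 and 60. It was thus present in the *h1* tables (titled Col-0) and the quadruple mutant. It was absent or nearly so from the *cdca7α cdca7β* tables (titled *h1.1 h1.2*) and the *col* tables (titled *cdca7α cdca7β*).

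The same arrangement over the 4 sets was seen at AT5G49465 and at AT1G06407. The latter had 1, 0 and 0 counts in the *col* tables and 7, 8 and 2 in the quadruple mutant. The other low-count loci below are given for the compared sets only, so the arrangement is not shown to be confined to the loci named for it. AT5G49465, a pseudogene, had 0, 0 and 1 counts against 18, 35 and 17, with 0 in the 3 *col* tables and 4, 9 and 7 in the quadruple mutant (log2 fold change -5.54 ± 1.02, edgeR adjusted p = 0.0071). AT2G08735, a long noncoding RNA, had 0, 2 and 1 counts against 13, 37 and 53 (-4.84 ± 0.84, adjusted p = 0.00518). AT2G01008, annotated as a maternal effect embryo arrest protein and lying at the start of chromosome 2, had 0, 1 and 2 counts against 30, 25 and 39 (-4.76 ± 0.76, adjusted p = 0.00332). All 3 were also called without replicate 1. The noncoding RNAs AT2G08045 and AT1G06407, with 0, 0 and 0 counts against 2, 24 and 5 and with 0, 1 and 0 against 13, 22 and 14, were called only with it (edgeR adjusted p = 0.0397 and 0.0177 with it, and 0.159 and 0.122 without it). AT5G28715, a pseudogene, had 1, 0 and 0 counts against 36, 29 and 7 (-5.62 ± 1.21, adjusted p = 0.0125), and AT1G06757, a long noncoding RNA, had 5, 0 and 0 against 33, 33 and 20 (-3.98 ± 0.92, adjusted p = 0.0176). Both were called in the 2 fits.

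Among annotated genes, *HAF2*, a histone acetyltransferase of the TAF1 family, had 12, 2 and 4 counts in the *cdca7α cdca7β* tables and 59, 56 and 39 in the *h1* tables. It was lower in both fits (log2 fold change -3.05 ± 0.56, edgeR adjusted p = 0.00589, and -3.88 ± 0.65, adjusted p = 0.00374). *ARR11*, a type-B response regulator of cytokinin signaling, had 1, 1 and 7 counts against 31, 82 and 40 and was also called in both (-3.91 ± 0.75, edgeR adjusted p = 0.0071, and -3.44 ± 0.78, adjusted p = 0.0323). *AGP26*, an arabinogalactan protein of the cell wall, had 2, 0 and 0 counts against 6, 20 and 13 and was called with all replicates only (adjusted p = 0.0491, and 0.0787 without replicate 1). The call of *ABCG34*, a transporter of the ABC family, went the other way: its 5, 0 and 0 counts against 6, 23 and 23 gave an edgeR adjusted p of 0.0845 with replicate 1 and 0.0437 without it. *CYP705A18*, a cytochrome P450, had 6, 1 and 0 counts against 23, 29 and 14 (edgeR adjusted p = 0.0538 with replicate 1 and 0.0369 without it), and the pseudogene AT4G10690 had 33, 5 and 0 against 35, 45 and 51 (adjusted p = 0.17 and 0.00964).

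In each of the 6 fits that left out 1 library, 13 of the 84 lower genes were called. Besides AT5G26970, AT2G01008 and *HAF2* they included, chosen for mention after their values were seen, *XIF*, a myosin, with 194, 212 and 140 counts against 480, 661 and 469 (log2 fold change -1.43 ± 0.25, edgeR adjusted p = 0.00518), and AT3G51330, an aspartyl protease, with 12, 16 and 14 against 177, 112 and 161 (-3.36 ± 0.53, adjusted p = 0.00332). *RLP3*, a receptor-like protein, had 89, 65 and 94 counts against 235, 302 and 169 (-1.42 ± 0.24, adjusted p = 0.00413). Its locus overlaps AT1G17255 on the opposite strand, which was also called lower, and without a known strand setting their reads cannot be told apart. With DESeq2 size factors in edgeR 48 genes were called lower, all of them among the 84.

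TEs were tested on the library sizes of the genes, so that their values are relative to gene counts. With all replicates, 25 of 744 TEs tested were higher in the *cdca7α cdca7β* tables (3.36%) and 17 were lower (2.28%), together 5.65%. Without replicate 1, 28 of 795 were higher (3.52%) and 10 lower (1.26%), together 4.78%. Unlike the genes, the higher TEs were nearly the same with and without replicate 1: 24 of the 25 were called in both fits, 96.0% of the 25 and 85.7% of the 28, and 22 of the 25 were called in each of the 6 fits that left out 1 library. Of the 17 lower TEs, 8 were called in both, 47.1% of the 17 and 80.0% of the 10. Of the 25 higher TEs, 0 had replicate 1 as the highest and replicate 2 as the lowest library. That is near the 3.90% of all TEs tested with this order, so it does not set the higher TEs apart. The number of lower TEs rested on single libraries and on the scaling: it was 73 without replicate 2 of the *cdca7α cdca7β* tables, 10 with DESeq2 size factors and 9 with library sizes from the TE counts. Those scalings gave 26 and 31 higher TEs, 72.2% and 77.5% of calls in place of 59.5%, and moved the median log2 fold change of all TEs tested from -0.36 to -0.15 and -0.01.

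Most higher TEs had no count at all in the *h1* tables. In 15 of the 25 all 3 *h1* tables were at 0, and in 14 of the 25 the *col* tables were at 0 as well. Such TEs passed the filter on low counts through other libraries and were selected for a high level in the *cdca7α cdca7β* tables. Their 0 counts are therefore no separate result, and the share of all TEs tested at 0 there is not given here. AT4TE15420 had 194, 398 and 141 counts in the *cdca7α cdca7β* tables and 0, 0 and 0 in the *h1* tables, at least 257-fold higher with a floor of 3 counts over the *h1* tables (edgeR adjusted p = 9.14e-07). The *col* tables had 0, 2 and 2 counts on it and the quadruple mutant 2, 0 and 0. AT5TE40530 had 19, 109 and 84 counts against 0, 0 and 0 (at least 74.4-fold, edgeR adjusted p = 0.000203), with replicate 1 the lowest of the 3. AT3TE50570 had 97, 57 and 60 against 0, 0 and 0 (at least 75.1-fold, adjusted p = 2.3e-05), and AT4TE09080 had 63, 88 and 49 against 0, 0 and 0 (at least 70.2-fold, adjusted p = 5.9e-05). All 4 had at most 7 counts in any library of the *col* tables or the quadruple mutant.

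The other TEs of the 10 with the largest increase were on chromosomes 1, 2, 3 and 5. AT1TE45395 had 28, 63 and 66 counts and AT2TE16800 had 31, 85 and 33, both against 0, 0 and 0 and with 0 in the *col* and quadruple tables (at least 55.1-fold and 52.3-fold, edgeR adjusted p = 0.000253 and 0.00039). AT3TE59460, AT3TE59470, AT5TE50965 and AT2TE19400 ranged from 10 to 59 counts in single *cdca7α cdca7β* tables and were at 0 in all *h1* tables (at least 31.6-fold to 44.2-fold, adjusted p = 0.000253 to 0.00293). AT3TE59470 and the pseudogene AT3G42360 had counts that differed by 7.22% over the 12 libraries, and whether the same reads stand in both tables was not tested. All 10 were called without replicate 1 too, where the rule for the largest changes also named AT2TE13335, with 2, 72 and 21 counts against 0, 0 and 0 (at least 52.8-fold, adjusted p = 0.00134), which was not tested with all replicates.

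The TE with the most counts of the called set was AT2TE19615, with 2357, 1901 and 1674 counts in the *cdca7α cdca7β* tables and 19, 9 and 2 in the *h1* tables (log2 fold change 7.69 ± 0.47, edgeR adjusted p = 2.9e-10). It stands here for its level, outside the rule for the largest changes. The *col* tables had 2, 5 and 3 counts on it and the quadruple mutant 23, 30 and 36. AT2TE28020 had 651, 1279 and 891 counts against 59, 127 and 32 (3.93 ± 0.60, adjusted p = 0.000203). In 22 of the 25 higher TEs the lowest *cdca7α cdca7β* table was above all 9 other libraries, against 3.09% of all TEs tested, with the same caution on selection as for genes. An exception was AT4TE17660, with 152, 336 and 49 counts against 7, 14 and 7 and with 208, 83 and 263 in the quadruple mutant. Of the 25, 9 lay on chromosome 2 by their names (36.0%, where 18.0% of TEs tested did) and 2 on chromosome 1 (8.00%, where 21.6% did). Some of the 9 have close numbers in their names, such as AT2TE17550, AT2TE17570 and AT2TE17585. Whether these are parts of 1 locus was not tested, so the 9 may not be separate loci.

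The lower TEs kept some counts in the *cdca7α cdca7β* tables. AT5TE39170 had 1, 0 and 0 counts in the *cdca7α cdca7β* tables and 53, 44 and 15 in the *h1* tables (log2 fold change -6.26 ± 1.12, edgeR adjusted p = 0.000792). AT3TE62100 had 2, 1 and 1 counts against 89, 87 and 50 (-5.62 ± 0.64, adjusted p = 1.48e-05), with 0, 0 and 0 in the *col* tables and 122, 146 and 48 in the quadruple mutant, the arrangement of AT5G26970. AT5TE29800 had 0, 2 and 2 counts against 45, 52 and 41 (-4.88 ± 0.78, adjusted p = 0.000253), with 4, 3 and 0 in the *col* tables and 15, 20 and 31 in the quadruple mutant. These 3 were called in every fit that left out 1 library, as were AT2TE26680, AT4TE10035, AT2TE31290, AT3TE40900 and AT4TE43140, with log2 fold changes from -3.31 to -1.79. AT4TE10035 had another arrangement, with 26, 53 and 91 counts in the *col* tables and 9, 22 and 19 in the quadruple mutant. AT3TE73260 had 0, 0 and 0 counts in the *col* tables and 10, 6 and 10 in the quadruple mutant. AT3TE73260, AT4TE12425 and AT5TE17330 were called only with replicate 1 (edgeR adjusted p = 0.035, 0.0129 and 0.0314 with it, and 0.141, 0.071 and 0.145 without it). Without it, AT4TE28200 was also called (35, 5 and 0 counts against 35, 47 and 52, adjusted p = 0.00351), whose counts differed by 4.23% from those of AT4G10690, and so was AT1TE18960 (10, 1 and 1 counts against 9, 24 and 14, adjusted p = 0.049).

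**Figure D5:**
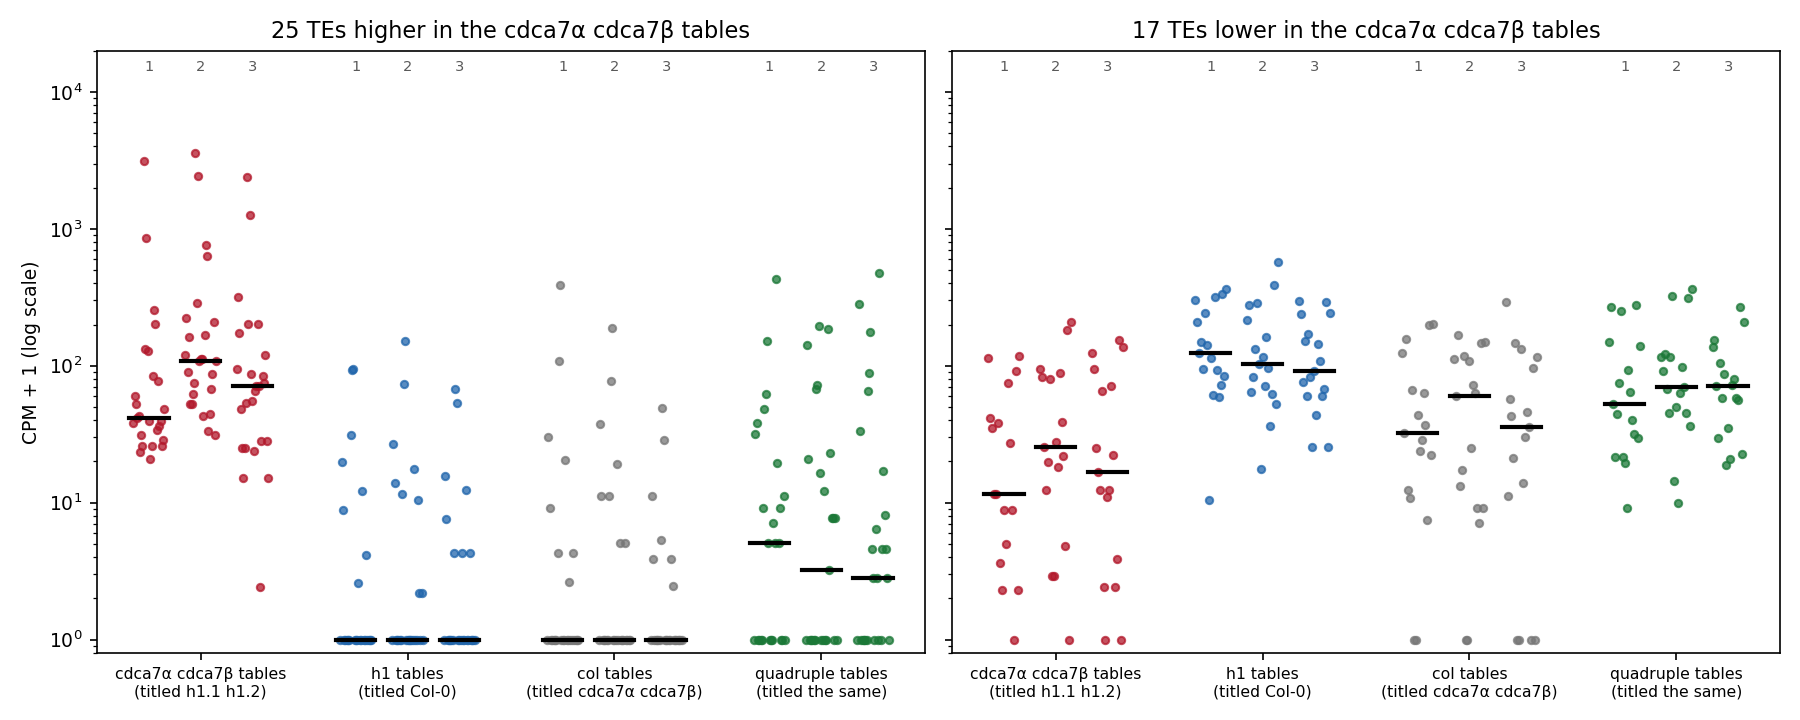
Levels (CPM + 1, log scale; CPM scaled by gene counts) of the 25 TEs called higher and the 17 called lower with all replicates, in each of the 12 libraries. Each point is 1 TE, bars are medians and replicate numbers stand at the top: the median of the higher TEs is 0 CPM in every *h1* table and 40.8, 108 and 69.7 CPM in replicates 1, 2 and 3 of the *cdca7α cdca7β* tables.

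In total, TE counts per 100 gene counts were 19.5, 28.2 and 20.0 in the *cdca7α cdca7β* tables and 30.9, 23.5 and 23.8 in the *h1* tables. The means of 22.6 ± 4.91 (SD, n = 3) and 26.1 ± 4.2 (SD, n = 3) were not separated by an exact two-sided permutation test (p = 0.5, smallest possible 0.1). As a share of all reads, TE counts were 0.450% ± 0.0306 and 0.476% ± 0.0588 (SD, n = 3 each; exact permutation p = 0.7).

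Few genes of the other lists had enough counts to be tested, where 97.6% to 98.3% of reads lay in no counted gene. Of 32 genes of DNA methylation and silencing, 1 was tested, *H1.2*, and it was not called (edgeR log2 fold change 0.36 ± 0.98, adjusted p = 0.885). The list summed to 194, 35 and 55 counts in the *cdca7α cdca7β* tables and 31, 66 and 45 in the *h1* tables, with replicate 1 again the highest. *ROS1*, a DNA demethylase, had 19, 2 and 5 counts against 4, 2 and 3. The 6 known targets of silencing, among them *SDC* with 0, 2 and 1 counts against 6, 7 and 0 and *QQS* with 6, 0 and 1 against 0, 0 and 0, were all below the filter. Of 10 clock genes 2 were tested and 0 called by edgeR, with 0 at an unadjusted p under 0.05 (DESeq2 called 0 and had 1 there): *LHY*, a morning transcription factor, had 49, 0 and 16 counts against 2, 16 and 6 (adjusted p = 0.482).

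Of 16 stress and defence genes 3 were tested and 0 called by edgeR in either fit, beside 3.03% and 1.88% of all genes, with 0 at an unadjusted p under 0.05 and 0 called by DESeq2. *HSP101*, a heat shock chaperone, had 22, 44 and 40 counts against 33, 65 and 66, and *ADH1*, alcohol dehydrogenase, had 24, 30 and 66 against 41, 51 and 44. These values overlapped between the sets. Of 10 genes of the DNA damage response 1 was tested, *TSO2*, a ribonucleotide reductase subunit, with 54, 5 and 2 counts against 9, 15 and 7 (adjusted p = 0.616). The leaf markers were those of the photosynthesis list and summed to 700 counts or more in all 6 libraries, 0.128% to 4.16% of gene counts. These values do not settle the seedling label. The 6 root markers summed to 44, 21 and 18 counts against 32, 18 and 17, led by *SCR* with 13, 12 and 14 against 24, 10 and 12. The 4 flower markers summed to 2, 0 and 0 against 2, 0 and 2, with *AP1* and *AP3* at 0 in all 6 libraries, and the 4 seed markers to 1, 2 and 6 against 1, 2 and 1. The root iron transporter *IRT1* had 22, 0 and 0 counts against 0, 1 and 2, so it was high in replicate 1 only, and the part of root tissue in the other values was not tested.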

How the data were processed

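Per the labels, table names and the study's methods, 12 mRNA libraries (TruSeq Stranded mRNA, 500 ng of RNA, 1 seedling each) were sequenced in 4 groups of 3. The authors trimmed reads (Trim Galore 0.6.7), aligned them to TAIR10 (STAR 2.7.11a), kept uniquely mapped reads and deposited raw HTSeq 0.13.5 counts for 35651 genes and 31189 TEs, without normalization. The strand option and the annotation release are not given in the sources used here. HTSeq's 5 summary lines were left out. In the 6 libraries compared, 97.6% to 98.3% of reads in the gene tables were in no gene, and 51.5% to 70.7% of genes had 0 counts.

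Genes and TEs were tested with edgeR 4.0.16 (glmQLFit and glmQLFTest, R 4.3.3) in 1 fit of 12 libraries with group means, TMM factors and library sizes from gene counts and filterByExpr, with Benjamini-Hochberg adjustment over all features tested. Calls needed an adjusted p under 0.05 and a log2 fold change of at least 1 in size. The second fit left out replicate 1 of the libraries titled *h1.1 h1.2*. The scripts were tested on simulated data. Shares were compared with exact permutation tests (scipy 1.17.1). DESeq2 1.42.0, DESeq2 size factors, no filter, other library sizes, the 6 libraries alone and leaving out libraries were alternatives. Positions and sequences came from RefSeq TAIR10.1, in which 34879 of the gene IDs were found, and similarity from blastn 2.17.0.

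Named were the 4 targeted genes, per fit and direction the 10 called features with the largest change whose libraries did not overlap, up to 5 called members of each list and the 3 with the most counts, exceptions being marked. The comparison, its members and the 9 gene lists (138 genes) were chosen with earlier results of these data known. Replicates were separate seedlings. Pairs of replicates differed by more than sampling noise (chi-square per degree of freedom 5.02 to 16.8).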

Additional observations from a re-analysis of the deposited data

How the results depend on the processing

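Counts of called genes with all replicates were 135 higher and 84 lower. DESeq2 called 244 higher, DESeq2 size factors in edgeR left 48 lower, and no filter on low counts gave 515 higher. With a single library left out, higher genes ranged from 15 to 501 and lower genes from 19 to 230, the extremes without replicate 3 (15) and replicate 2 (19) of the *h1* tables and without replicate 2 of the *cdca7α cdca7β* tables (501 and 230). Without replicate 1 of the *cdca7α cdca7β* tables, 28 were higher and 38 lower. In that fit DESeq2 called 43 higher, no filter gave 73 and 75, and, chosen after seeing the data, replicate 2 alone gave 11 and 2, replicate 3 alone gave 62 and 63 (the lone library assumed to vary like the other groups), and leaving out an *h1* table gave 12 to 13 higher and 14 to 19 lower. DESeq2 size factors gave 32 and 29 there, 52.5% higher in place of 42.4%. The cause of these shifts was not tested.

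For TEs, 25 higher became 46 with no filter and 44 with at least 10 counts over the 6 libraries, while 17 lower became 10 with DESeq2 size factors and 9 with TE library sizes. With a single library left out, lower TEs ranged from 10 to 73. Without replicate 1, 28 higher became 18 with DESeq2, 44 with no filter and 13 with replicate 3 alone, and 10 lower became 3 with replicate 2 alone. No call of a named gene or TE reversed under the alternatives run. Of the named genes that were not called, *TSO2* moved from a log2 fold change of 0.95 to -1.26, *H1.2* from 0.36 to -0.14 and *ADH1* from -0.11 to 0.21 without replicate 1. Counted over those alternatives, named genes kept their call 200 times and lost it 70 times with all replicates (152 and 73 without replicate 1), and named TEs 236 and 23 times (168 and 30). The photosynthesis share differed by 1.58 percentage points, from 0.35 to 2.36 with 1 library left out, and TE counts per 100 gene counts by -3.49, from -6.32 to -1.07.

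Same-numbered libraries of the 2 sets did not deviate together (correlations 0.0931, 0.00858 and 0.018 for genes; 0.208, -0.0188 and 0.0608 for TEs), and no pairing by number was assumed. With the replicate number as a block, 90 genes were higher and 80 lower, and 26 TEs higher and 18 lower. At 511830 to 833911 gene counts per library, 4461 of 35651 genes passed the filter on low counts, and the others have no value in the main fit.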
